A study of Mus musculus with 24 samples.

Results

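The carbonic anhydrase genes Car1, Car2, Car3, Car4, Car7, Car8, Car9, Car12 and Car13 were followed through 24 RNA-seq libraries of mouse colorectal tissue. The members were picked by symbol from the deposited expression tables, 9 of the 24346 symbols listed, and they were listed with the differences between tumor and normal tissue of these data known. Differences between tumor and normal tissue are therefore given as a description; the calls of the fit in that contrast are counted once, beside the share of all genes, and nothing is read from them. Tests of the members are read for genotype and zygosity. A further 7 carbonic anhydrase symbols (Car5a, Car5b, Car6, Car10, Car11, Car14 and Car15) served as company for the 9.

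Carbonic anhydrases are zinc enzymes that interconvert carbon dioxide and water with bicarbonate and a proton. In the colon they feed bicarbonate and protons to the exchangers through which surface colonocytes take up sodium chloride and secrete bicarbonate. Car1, Car2, Car3, Car7 and Car13 are cytosolic, Car4 is tethered to the outer face of the apical membrane by a lipid anchor, and Car9 and Car12 span the membrane with the catalytic domain outside the cell. Car8 is a carbonic anhydrase-related protein that lacks the enzyme activity and is known as a partner of the inositol trisphosphate receptor.

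All animals had received azoxymethane, a carcinogen, and dextran sulfate sodium, a polymer that injures the colon (AOM/DSS), and each tissue piece was labelled tumor or normal. The genotype label was c-MAF_KO or WT, and the sample titles split it into 5 kinds: a KO with the leading number 1 and the word hetero (KO-1-hetero below), a KO with the leading number 8 and hetero (KO-8-hetero) or homo (KO-8-homo), and wild young and wild old animals (WT-young, WT-old). In this order the tumor groups held 3, 3, 3, 4 and 1 libraries, and every normal group held 2. Pooled by label there were 9 KO and 5 WT tumors and 6 KO and 4 WT normal libraries. The labels leave the leading numbers unexplained, give no ages, and do not say how the knockout was made or which libraries came from the same animal, so p-values measure the spread between these libraries. Levels are FPKM (fragments per kilobase of transcript, relative to the fragments mapped in a library), a unit per length in which different genes can be set side by side.

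Maf itself was not lower under the KO label: it ranged from 2.62 to 7.40 FPKM in the KO tumors, above the 1.63 to 2.26 FPKM of all 4 WT-young tumors, and was 7.26 FPKM in the WT-old tumor, so KO below means the libraries labelled KO. Relative depth, read from the step size of low values, ran from 0.690 to 1.87 of the median library, and 12074 to 13290 genes reached 1 FPKM. The summed FPKM of 6 markers of colonic epithelium was 2582 to 6995 in tumors and 3765 to 8016 in normal libraries. All of these markers were detected. Of the tumors, 2 stood apart. KO-8-hetero tumor 2 had a summed FPKM of 11627 for 8 squamous epithelium markers, against 15.6 to 1294 in the other 13 tumors, and 672 for 8 skeletal muscle markers, against 6.34 to 36.7 in every other library. WT-old tumor 1 had 3481 FPKM of smooth muscle markers (216 to 1577 in the other 13), the lowest Epcam of all libraries (418 FPKM) and Wnt target genes mostly at the level of normal tissue: 17 of 20 were under every other tumor and 16 of 20 no higher than the highest normal library. Notum, a secreted Wnt inhibitor, was 0.222 FPKM there, 8.23 to 148 in the other 13 tumors and 0.188 to 0.510 in normal libraries. The part of these features in its carbonic anhydrase values was not tested, and results that rest on it are given with and without it.

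The labels give no sex, and the groups differed in it by expression. Xist, expressed from the inactive X chromosome of females, was 7.38 to 49.9 FPKM in all 4 KO hetero normal libraries, KO-1-hetero tumor 3 and KO-8-hetero tumor 3, where the Y-linked Ddx3y was 0.0222 to 0.0454. In the other 18 libraries Xist was 0.0276 to 0.0719 and Ddx3y 7.20 to 14.8 FPKM. Among KO normal libraries the female pattern and the hetero word therefore cannot be told apart, and the KO hetero groups set mostly male-pattern tumors against female-pattern normal tissue. Some pooled values are also given for the 18 libraries with Xist under 1 FPKM (7 KO and 5 WT tumors, 2 KO and 4 WT normal libraries), a choice made after the data were seen. The 2 KO normal libraries among them are both KO-8-homo, while the 7 KO tumors come from every KO title group. In KO values from this set, a change of sex cannot be told apart from a change of title group.

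All 9 members had a value above 0 in each of the 24 libraries, and all 9 passed the filter used for the fits (4 or more libraries at 1 FPKM or above, 13799 genes). Car7 passed at its limit, with 4 libraries at 1 FPKM or more. Car1, Car2, Car4, Car9, Car12 and Car13 were at 1 FPKM or more in all 24 libraries, Car8 in 13 and Car3 in 12.

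In the RefSeq annotation of GRCm38.p6, the assembly of the mm10 build, Car13 (14641727 to 14663002), Car1 (14766214 to 14808365), Car3 (14863538 to 14872381) and Car2 (14886269 to 14900770) lie in a row over 259 kb of chromosome 3. No other protein-coding gene is annotated between them. Gm41999, a noncoding RNA gene annotated over the start of Car3, was not used here, and whether the counting used strand is not given in the sources used here. Car8 and Car9 lie on chromosome 4, Car7 on chromosome 8, Car12 on chromosome 9 and Car4 on chromosome 11. All 9 members matched this annotation by symbol, and 4 of them (Car4, Car7, Car9 and Car12) had a promoter window in the RefSeq table.

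Both sequences below are the 250 bases before the annotated start of transcription on the plus strand of GRCm38.p6, shown because Car4 differed widely between tumor and normal tissue in KO libraries (-4.55 on the log2 scale) and Car9, the textbook hypoxia-induced member, little (-0.39). Capitals mark matches to 5 short motifs searched on both strands. The Maf half-site was searched as TGCTGA and the core of the hypoxia response element as ACGTG. The motif of the intestinal Cdx factors was searched as TTTAT, and that of the Tcf factors of the Wnt pathway as CTTTGAT. The motif of the nuclear receptor Hnf4 was searched as CAAAGT. The Car4 window is chr11:84957504-84957753 and holds none of the 5. The Car9 window is chr4:43506776-43507025 and holds 3, none overlapping another.
Car4: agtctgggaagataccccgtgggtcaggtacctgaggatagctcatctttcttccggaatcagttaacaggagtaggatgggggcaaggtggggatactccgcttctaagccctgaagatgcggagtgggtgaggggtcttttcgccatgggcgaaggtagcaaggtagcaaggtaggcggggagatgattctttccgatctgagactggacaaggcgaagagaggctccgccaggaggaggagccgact
Car9: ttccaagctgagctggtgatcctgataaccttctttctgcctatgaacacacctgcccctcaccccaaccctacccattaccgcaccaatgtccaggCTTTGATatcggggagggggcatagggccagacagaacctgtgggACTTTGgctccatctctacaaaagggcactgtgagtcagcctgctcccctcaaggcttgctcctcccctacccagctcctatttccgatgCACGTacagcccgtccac

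The match nearest to the Car9 start is the hypoxia response core, read on the minus strand and beginning at base -18. The Hnf4 motif begins at -108 on the minus strand and the Tcf motif at -153 on the plus strand. In all 32851 promoter windows of this length, 16.6% held the hypoxia response core, 12.6% the Hnf4 motif, 3.21% the Tcf motif, 37.3% the Cdx motif and 16.1% the Maf half-site. The Maf half-site was in none of the windows of Car4, Car7, Car9 and Car12, which says only that these letters are not there.

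Car1, Car2 and Car4 made up most of the carbonic anhydrase transcript. In the 10 normal libraries the 3 genes held 94.96% to 98.9% of the summed FPKM of the 9, and in 13 of the 14 tumors 90.4% to 96.1%. The exception was KO-8-hetero tumor 2, where they held 53.9% and Car3 alone 22.3%. The summed FPKM of the 9 genes was 2609 to 14839 in normal libraries, with a median of 4141, and 309 to 2561 in tumors, with a median of 794.

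**Figure D1:**
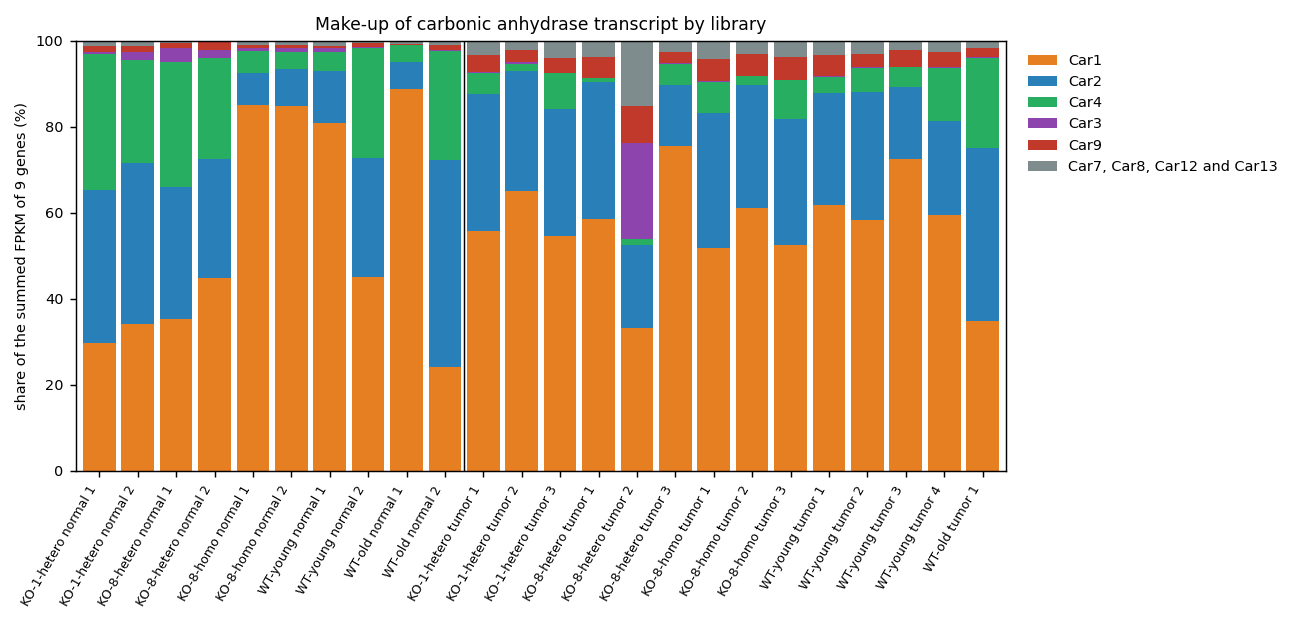
Share of each gene in the summed FPKM of the 9 carbonic anhydrases (y axis, percent) in each of the 24 libraries (x axis, normal left of the line and tumor right of it). Car4 held a median of 23.7% in normal libraries and 4.90% in tumors, and Car1 held 80.8% to 88.8% in 4 of the normal libraries.

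The make-up also differed between the tissues. Car4 held a median of 23.7% of the sum in normal libraries and 4.90% in tumors, while the median share of Car2 was 27.7% and 28.9%. Car9 held 0.358% to 1.68% in normal libraries and 2.11% to 8.80% in tumors, with no overlap. Since the level of Car9 itself overlapped between the tissues (below), its larger share goes with the lower sum of the others.

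Tumors held less Car1, Car2, Car3 and Car4 in libraries of both labels. Car2 was lower in every tumor than in every normal library, and Car1, Car3 and Car4 in 13 of 14 tumors. In bulk tissue, fewer cells of a type and less RNA per cell cannot be told apart. On the log2(FPKM + 1) scale of the fits, 4 of 9 members were past the threshold (limma, Benjamini-Hochberg adjusted p of 0.05) in each label, all lower in tumors. Of all genes tested, 23.2% were called lower in KO tumors and 14.8% in WT tumors, and nothing is read from the members' count, since they were listed with this contrast known. Without WT-old tumor 1 the WT count was 5, beside 15.4% of all genes called lower.

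**Figure D2:**
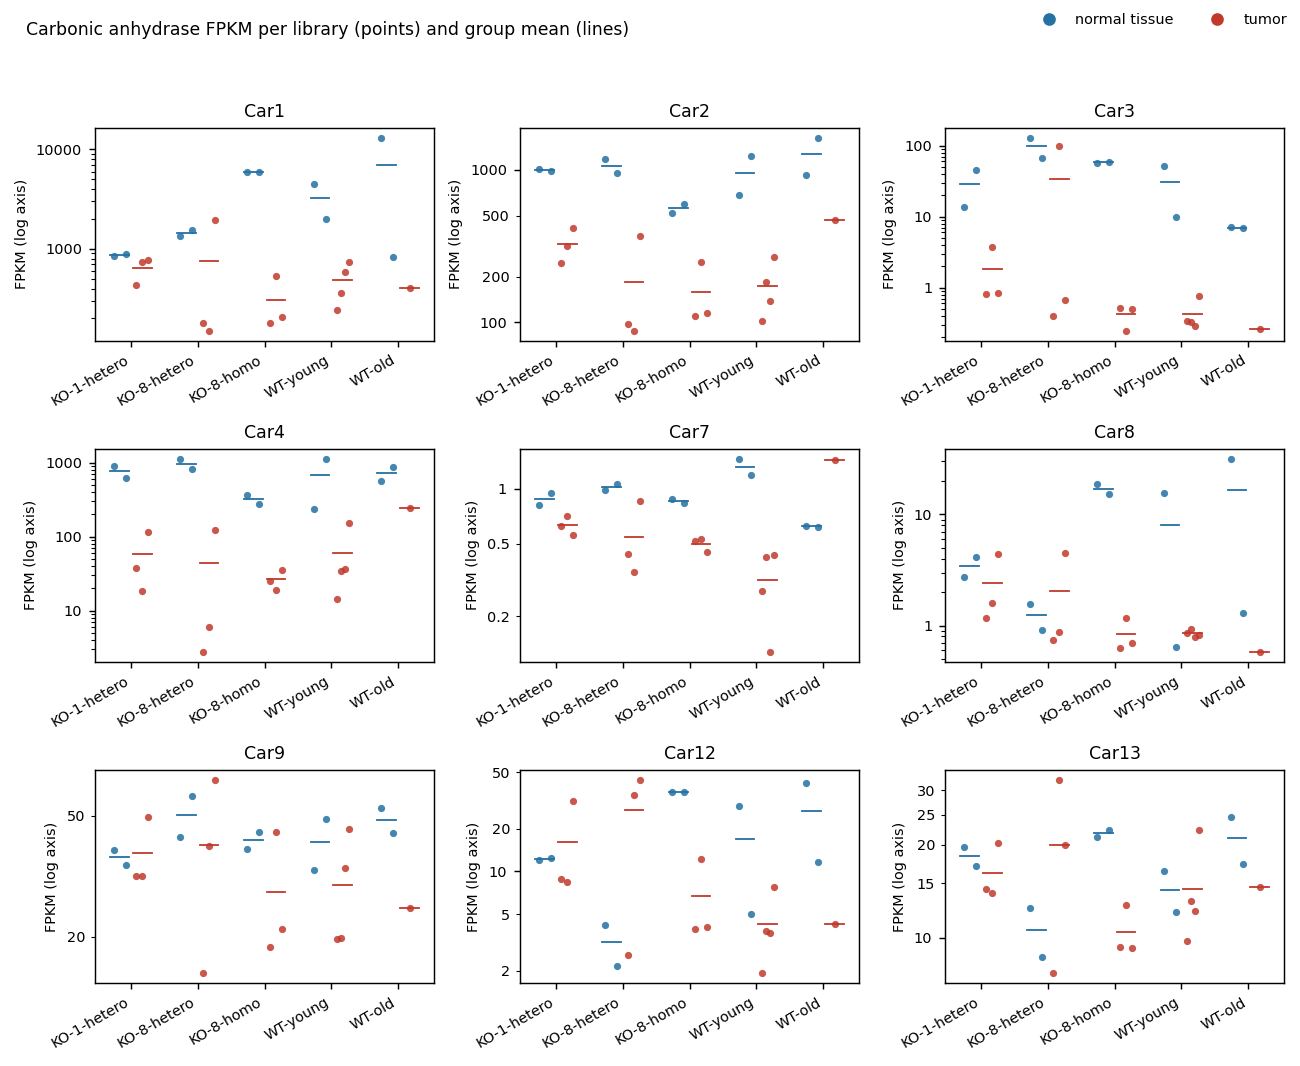
FPKM of each carbonic anhydrase (y axis, log scale) in every library (points) by title group (x axis), with normal tissue in blue, tumor in red and lines at the group means. All 14 tumors lie below all 10 normal libraries for Car2, while the tissues overlap for Car8, Car9, Car12 and Car13.

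Car2, the fast cytosolic enzyme, had the cleanest separation. In normal libraries it measured 1019 and 977 FPKM for KO-1-hetero, 1172 and 960 for KO-8-hetero, 521 and 601 for KO-8-homo, 680 and 1242 for WT-young, and 930 and 1633 for WT-old. In tumors it measured 245, 316 and 414 FPKM for KO-1-hetero, 97.8, 87.8 and 368 for KO-8-hetero, 110, 248 and 115 for KO-8-homo, 102, 184, 138 and 269 for WT-young, and 473 for WT-old. The highest tumor, the WT-old one with normal-level Wnt targets, was thus under the lowest normal library, KO-8-homo normal 1. The log2 difference was -2.14 (SE 0.37) in KO and -2.40 (SE 0.47) in WT libraries. Without WT-old tumor 1 the WT value was -2.70, and among the libraries with Xist under 1 FPKM the KO value was -1.85.

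Car1, a cytosolic enzyme abundant in colonocytes and red blood cells, reached the highest level of the 9 and also varied most among normal libraries after Car8, Car12 and Car3. It measured 858 and 892 FPKM for KO-1-hetero, 1346 and 1557 for KO-8-hetero, 5980 and 5919 for KO-8-homo, 4494 and 2008 for WT-young, and 13181 and 820 for WT-old normal tissue. In tumors it measured 431, 732 and 770 FPKM for KO-1-hetero, 181, 150 and 1932 for KO-8-hetero, 181, 531 and 206 for KO-8-homo, 242, 359, 592 and 738 for WT-young, and 409 for WT-old. KO-8-hetero tumor 3 was the only tumor above any normal library, and it exceeded both normal libraries of its own title group. The log2 difference was -2.30 (SE 0.61) in KO and -2.85 (SE 0.78) in WT. Without WT-old normal 1 the WT value was -2.16, and among the libraries with Xist under 1 FPKM the KO value was -4.36. The 2 KO normal libraries of that set are both KO-8-homo, at 5980 and 5919 FPKM. Summed markers of red blood cells (6 of the 8 listed are in the tables) were 20.9 to 76.7 FPKM in normal libraries and 9.51 to 103 in tumors. The highest sum was in KO-8-hetero tumor 2, beside 150 FPKM of Car1, and the part of red blood cells in the Car1 values was not tested.

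Car4, the surface-anchored enzyme, differed by -4.55 (SE 0.69) in KO and -3.33 (SE 0.88) in WT libraries on the log2(FPKM + 1) scale. Without WT-old tumor 1 the WT value was -3.84, and among the libraries with Xist under 1 FPKM the KO value was -4.24. Normal libraries measured 911 and 625 FPKM for KO-1-hetero, 1107 and 816 for KO-8-hetero, 363 and 275 for KO-8-homo, 239 and 1136 for WT-young, and 569 and 862 for WT-old. Tumors measured 38.2, 18.6 and 117 FPKM for KO-1-hetero, 2.74, 5.93 and 124 for KO-8-hetero, 24.8, 19.1 and 35.2 for KO-8-homo, 14.5, 34.3, 37.0 and 154 for WT-young, and 247 for WT-old. The single WT-old tumor was the highest and lay just above WT-young normal 1, though below both WT-old normal libraries; it is the tumor with 3481 FPKM of smooth muscle markers and Wnt targets mostly at normal level. The next was WT-young tumor 4. Tumors spanned a 90.2-fold range, from KO-8-hetero tumor 1 to WT-old tumor 1, and normal libraries a 4.75-fold range.

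Car3, a cytosolic enzyme of low activity known for its abundance in fat cells and skeletal muscle, was 95.2-fold lower by median in tumors. Normal libraries measured 13.6 and 44.8 FPKM for KO-1-hetero, 131 and 68.3 for KO-8-hetero, 57.0 and 59.1 for KO-8-homo, 52.3 and 10.04 for WT-young, and 7.11 and 6.92 for WT-old. Of the 14 tumors, 12 were under 1 FPKM. KO-1-hetero tumor 2 had 3.78 FPKM and KO-8-hetero tumor 2 had 100.5, above all but 1 of the normal libraries. The log2 difference was -4.23 (SE 0.73) in KO, or -4.88 without KO-8-hetero tumor 2, and -3.33 (SE 0.92) in WT. Among the libraries with Xist under 1 FPKM the KO value was -4.20.

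Markers of fat tissue moved with Car3. The summed FPKM of 8 adipocyte markers, all of them in the tables, was 167 to 491 in normal libraries and 13.0 to 141 in tumors, with the highest tumor value in KO-8-hetero tumor 2. Fabp4 and Pck1, which cells other than fat also express, made up 61.2% to 97.6% of the sum. The other 6 markers together were 14.4 to 184 FPKM in normal libraries and 1.27 to 50.3 in tumors, again highest in KO-8-hetero tumor 2. Over the 24 libraries the 3 genes with the pattern most like that of Car3 were Retn, Cfd and Adipoq, which encode the fat cell products resistin, adipsin and adiponectin (Pearson r of log2(FPKM + 1) 0.979, 0.977 and 0.965). Adipoq was listed at 0 in 4 tumors, was 0.0217 to 1.55 FPKM in 9 others, and was 4.91 FPKM in KO-8-hetero tumor 2. That tumor also held the skeletal muscle transcripts Ckm (99.4 FPKM) and Acta1 (175 FPKM) and the squamous keratins Krt5 (1163 FPKM) and Krt14 (3173 FPKM). WT-young tumor 2, with 250 FPKM of Krt5 and 579 FPKM of Krt14, had 0.327 FPKM of Car3. The part of fat, muscle or squamous tissue in the Car3 values was not tested.

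**Figure D3:**
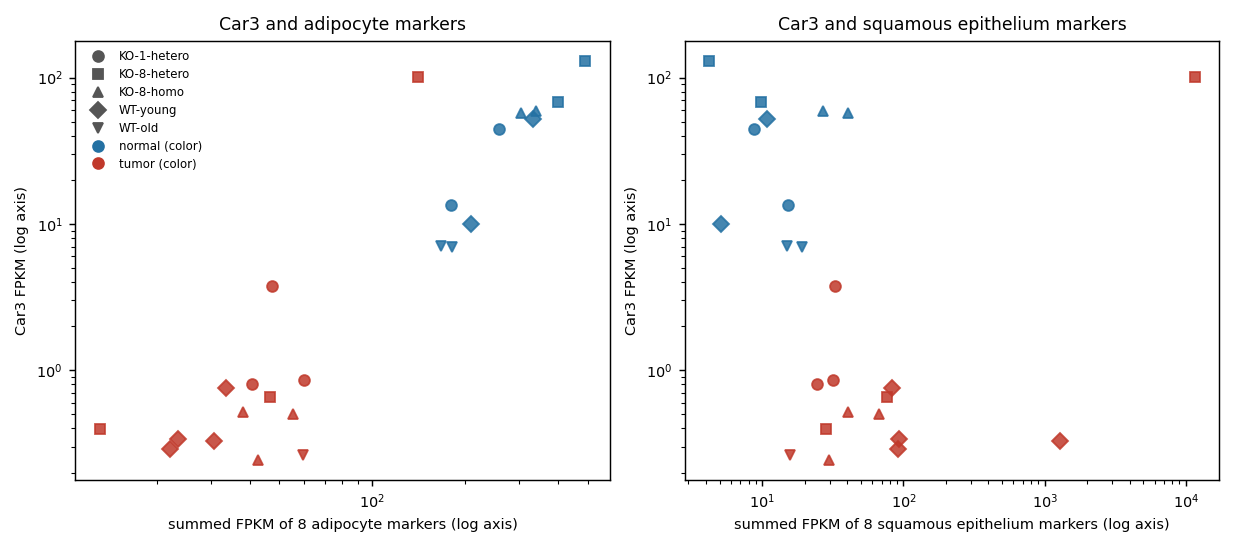
Car3 FPKM (y axes, log scale) in the 24 libraries against the summed FPKM of 8 adipocyte markers (left) and 8 squamous epithelium markers (right), both on log scales; shapes are title groups and colors tissue. KO-8-hetero tumor 2, at 100.5 FPKM of Car3, is the tumor with the highest sum in both panels.

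Car8, the non-catalytic relative, was low in most libraries. Normal libraries measured 2.73 and 4.18 FPKM for KO-1-hetero, 1.58 and 0.913 for KO-8-hetero, 18.8 and 15.3 for KO-8-homo, 15.5 and 0.635 for WT-young, and 31.8 and 1.30 for WT-old. Tumors ranged from 0.577 to 4.51 FPKM with a median of 0.868, and all tumors lay under all normal libraries in 2 of 5 title groups. The log2 difference was -1.19 in KO and -1.90 in WT. It was -3.20 in the KO libraries with Xist under 1 FPKM, whose 2 normal libraries are both KO-8-homo.

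Car12 and Car9, the transmembrane enzymes with an extracellular active site, did not separate the tissues. Car12 measured 12.1 and 12.5 FPKM for KO-1-hetero, 4.21 and 2.15 for KO-8-hetero, 36.2 and 36.5 for KO-8-homo, 28.7 and 4.99 for WT-young, and 42.0 and 11.7 for WT-old normal tissue. Its tumors measured 8.80, 8.38 and 31.4 FPKM for KO-1-hetero, 2.59, 34.4 and 44.3 for KO-8-hetero, 3.91, 12.2 and 4.07 for KO-8-homo, 1.92, 3.80, 3.66 and 7.76 for WT-young, and 4.24 for WT-old. The title groups went different ways: the tumor minus normal log2 difference of Car12 was 2.15 for KO-8-hetero, 0.11 for KO-1-hetero, -1.45 for WT-young, -2.16 for WT-old and -2.44 for KO-8-homo. Averaged over the KO label these gave -0.06 (SE 0.62), a value whose sign turned when single libraries were left out (-0.46 to 0.25). Among the libraries with Xist under 1 FPKM, where the 2 KO normal libraries are both KO-8-homo, it was -2.10.

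Car9, the hypoxia-induced enzyme of many tumors, was 33.3 to 58.4 FPKM in normal libraries and 15.2 to 65.9 FPKM in tumors, with medians of 43.2 and 31.7. Of 14 tumors, 8 were under the lowest normal library and 1, KO-8-hetero tumor 3, was above the highest. The log2 difference was -0.39 (95% interval -0.92 to 0.14) in KO and -0.68 (-1.36 to -0.01) in WT. Among the libraries with Xist under 1 FPKM the KO value was -0.60.

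Car13, a cytosolic enzyme, was the steadiest member with Car9: 8.68 to 24.6 FPKM in normal libraries and 7.70 to 32.4 FPKM in tumors, the highest being KO-8-hetero tumor 2. Its log2 difference was -0.17 (-0.71 to 0.36) in KO and -0.28 (-0.96 to 0.40) in WT. Among the libraries with Xist under 1 FPKM the KO value was -0.72. Car7, a cytosolic enzyme best known from neurons, was near or under 1 FPKM, at 0.617 to 1.46 FPKM in normal libraries and 0.127 to 1.44 FPKM in tumors. In 4 of 5 title groups every Car7 tumor value was under both normal values. In WT-old the single tumor (1.44 FPKM) was above both normal libraries (0.629 and 0.617 FPKM). Without that tumor the WT difference of Car7 was -0.57.

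**Figure D4:**
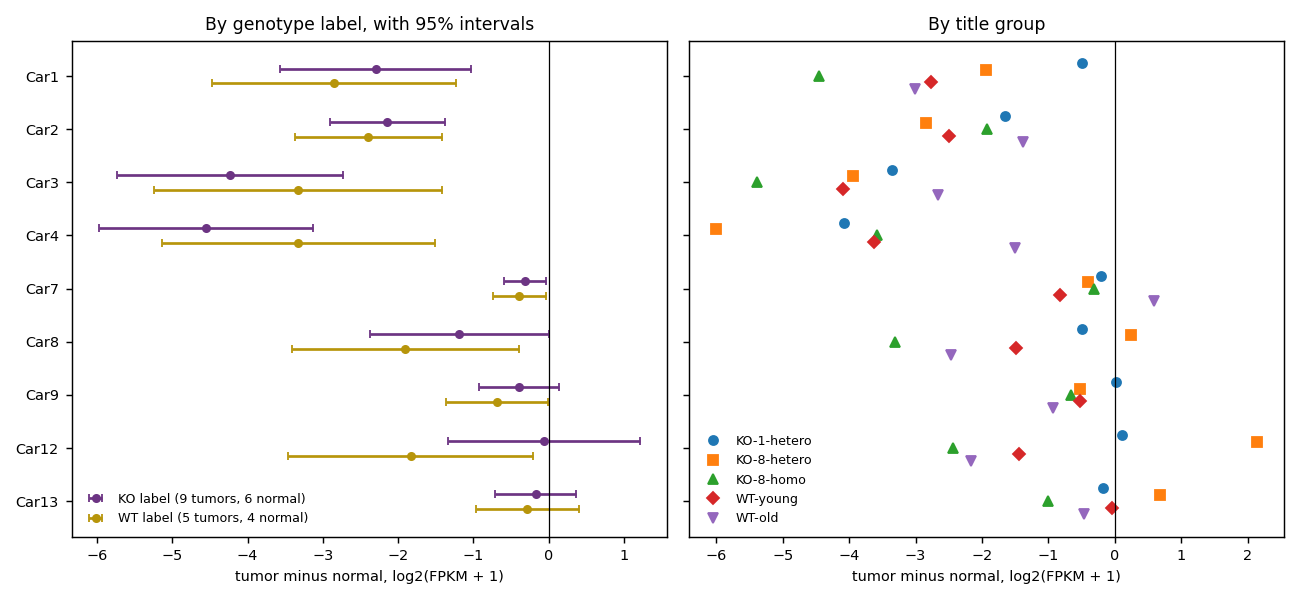
Difference between tumor and normal tissue (x axes, log2(FPKM + 1)) of each carbonic anhydrase (y axis), by genotype label with 95% intervals (left) and by title group (right). Car1, Car2, Car3 and Car4 are left of 0 in all 5 title groups, and Car12 runs from -2.44 in KO-8-homo to 2.15 in KO-8-hetero.

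Within title groups the members' differences between tumor and normal tissue had medians of -0.49 for KO-1-hetero, -0.53 for KO-8-hetero, -2.44 for KO-8-homo, -1.49 for WT-young and -1.50 for WT-old, which has 1 tumor, against medians over all genes of 0.00272 to 0.0301. The Car1 difference ran from -0.49 (KO-1-hetero) to -4.46 (KO-8-homo). The tumor means of these groups, 644 and 306 FPKM, were closer than their normal means, 875 and 5950 FPKM. Both normal libraries of KO-1-hetero carry the female pattern and both of KO-8-homo the male one, and the part of sex in this difference was not tested.

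Normal libraries differed from one another in the balance of the 3 abundant members. The Car1 to Car4 ratio of FPKM was 16.5 and 21.5 in the KO-8-homo libraries, 18.8 in WT-young normal 1 and 23.2 in WT-old normal 1, and 0.942 to 1.91 in the other 6. In the same 4 libraries Car8 was 15.3 to 31.8 FPKM, against 0.635 to 4.18 in the other 6, and Car12 was 28.7 to 42.0 FPKM, against 2.15 to 12.5. Both WT-young and WT-old held 1 library of each kind, and the part of age in the balance was not tested. Both KO-8-homo normal libraries had the high ratio and none of the 4 KO hetero normal libraries did, and with 2 libraries in a group this difference was not tested. Sex by Xist and Ddx3y splits these 6 libraries in the same way, while the 4 WT normal libraries, all of the male pattern, held 2 of each kind.

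Other genes moved with that balance. Cdx2, a transcription factor that sets intestinal identity, was 96.2 and 97.3 FPKM in the KO-8-homo, 68.4 in WT-young 1 and 135 in WT-old 1 normal libraries, and 19.7 to 51.7 in the other 6. Hoxd8, a homeobox gene of body axis patterning, was 4.23, 4.61, 4.25 and 7.29 FPKM in the same order and 0.244 to 1.18 in the others. Hoxd8 was the gene whose pattern over the 10 normal libraries was most like that of Car1 (r = 0.985), and H2-T3 was the one most like Car8 (r = 0.991). The labels do not say where along the colon a piece was taken, and the part of position in these values was not tested.

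**Figure D5:**
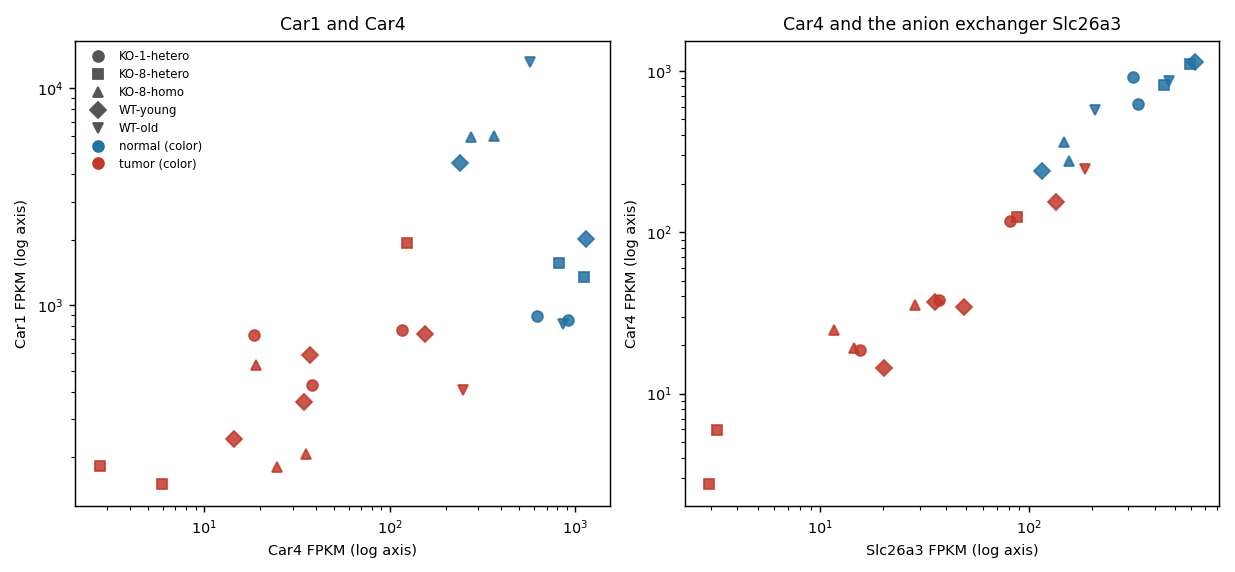
Left, Car1 FPKM (y axis) against Car4 FPKM (x axis); right, Car4 FPKM (y axis) against FPKM of the anion exchanger Slc26a3 (x axis), all on log scales, in the 24 libraries, with shapes for title groups and colors for tissue. The 4 normal libraries at the upper left of the normal cloud in the left panel have Car1 to Car4 ratios of 16.5 to 23.2, while Car4 and Slc26a3 lie close to 1 line (r = 0.983).

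Car4 kept close company with surface colonocyte genes. Over the 24 libraries its most similar genes were Aqp8, a water channel (r = 0.987), Slc26a3, the chloride-bicarbonate exchanger of the colon (r = 0.983), and Slc5a8, a transporter of short-chain fatty acids (r = 0.976), and the same 3 led over the 14 tumors alone (0.9752, 0.9701 and 0.956). In KO-8-hetero tumor 1, with 2.74 FPKM of Car4, Slc26a3 was 2.93 and Aqp8 1.84 FPKM. In WT-old tumor 1, with 247 FPKM of Car4, they were 185 and 200 FPKM. Car2 was most like Selenbp2, Selenbp1 and Cbr1 over the 24 libraries (r = 0.960, 0.956 and 0.955) and Car1 most like Mpst, Erich4 and Abcb6 (0.941, 0.930 and 0.930). These correlations are over libraries that share the split into tumor and normal tissue.

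The members fell into loose sets. Over the 14 tumors Car1 and Car2 (r = 0.801) and Car2 and Car4 (0.781) varied together, as did Car9 and Car12 (0.859) and Car12 and Car13 (0.809). In normal libraries Car2 and Car4 were alike (r = 0.845), whereas Car1 ran against both (-0.672 with Car2 and -0.656 with Car4) and Car8 and Car12 were alike (0.926). Of the 4 neighbours on chromosome 3, Car3 followed none of the others within the normal libraries (r = 0.01 with Car1, -0.495 with Car2 and -0.328 with Car13).

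The question the series title names is whether the c-MAF KO and WT libraries differ, and no carbonic anhydrase differed by label beyond the spread between libraries. In KO against WT tumors 0 of 9 members passed the threshold of the limma fit, 0 had an unadjusted p under 0.05, and 0.00725% of all genes were called. In normal tissue 0 of 9 passed (0% of all genes), with Car3 alone at an unadjusted p under 0.05. The interaction, which asks whether the difference between tumor and normal tissue depends on the label, called 0 of 9 (0% of all genes), 0 of them at an unadjusted p under 0.05. Counted over all genes, 1147, 645 and 654 of the 13799 had an unadjusted p under 0.05 in the 3 comparisons.

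The intervals show how far these comparisons reach. For Car9 and Car13, the steadier members, the KO minus WT log2 difference in tumors was 0.23 (95% interval -0.33 to 0.79) and 0.03 (-0.54 to 0.60), and for Car2 it was -0.08 (-0.90 to 0.73). For Car4 it was -1.21 (-2.72 to 0.29, limma adjusted p 0.679), with 2.74 to 124 FPKM in KO and 14.5 to 247 in WT tumors. The interval therefore takes in both no difference and a difference larger than 2 on the log2 scale. Without the single WT-old tumor the Car4 value was -0.70, and among the libraries with Xist under 1 FPKM -1.85 (adjusted p 0.31).

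Car12 had the lowest unadjusted p of the 9 in tumors (0.0602), with a log2 difference of 1.29 (-0.06 to 2.64, limma adjusted p 0.624). It was 8.80 FPKM by median in KO tumors (2.59 to 44.3) and 3.80 in WT tumors (1.92 to 7.76), and its interaction was 1.77 (-0.29 to 3.84, adjusted p 0.986), or -0.26 among the libraries with Xist under 1 FPKM. The 3 tumors at 31.4 FPKM or more were KO-1-hetero tumor 3 and KO-8-hetero tumors 2 and 3. Without KO-1-hetero tumor 3 and KO-8-hetero tumor 3, the 2 tumors of the female pattern, the difference was 0.81.

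Car3 was higher in KO tumors by 1.02 on the log2 scale (-0.57 to 2.61, adjusted p 0.761), and by 0.37 without KO-8-hetero tumor 2. In normal tissue it was 58.1 FPKM by median in KO libraries (13.6 to 131) and 8.57 in WT libraries (6.92 to 52.3), a difference of 1.92 (0.08 to 3.75; unadjusted p 0.0417, limma adjusted p 1). Of these normal libraries 4 of the 6 KO and 0 of the 4 WT had the female pattern, and between the 2 KO and 4 WT libraries of the male pattern the difference was 2.08 (unadjusted p 0.127, adjusted p 0.857). The 6 adipocyte markers other than Fabp4 and Pck1 summed to a median of 115 FPKM in KO (24.1 to 184) and 22.4 in WT normal libraries (14.4 to 101), and their part in the Car3 difference was not tested. The other 8 members differed by -0.68 (Car1) to 0.01 (Car4) in KO against WT normal tissue.

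Split by title group, 0 of 9 members passed the threshold in each of the 5 comparisons between tumor groups. The shares of all genes called were 2.88% for KO-1-hetero against WT-young, 0.00725% for KO-8-hetero against WT-young, 0.457% for KO-8-homo against WT-young, 0.0507% for KO-8-homo against KO-8-hetero and 0% for KO-1-hetero against KO-8-hetero. At an unadjusted p under 0.05 there were 2, 1, 0, 0 and 1 members in the same order. The first 3 comparisons share the WT-young tumors.

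KO-1-hetero tumors had the highest Car2 among groups of 3 or more tumors. The 3 values (245, 316 and 414 FPKM) overlapped those of WT-young (102 to 269) in 1 library, and the log2 difference was 0.96 (0.03 to 1.90, limma adjusted p 0.246). Against KO-8-hetero tumors it was 1.11 (0.11 to 2.11, adjusted p 0.441), and without KO-8-hetero tumor 3, at 368 FPKM, it became 1.77 with a limma adjusted p of 0.0445. The tumor left out is the only one of the female pattern in its group. KO-1-hetero kept its own, tumor 3, at 414 FPKM, and the part of sex was not tested. The share of all genes called in that fit is not given here, so nothing is read from the Car2 call. Car7 in KO-1-hetero (0.558 to 0.706 FPKM) was above all 4 WT-young tumors (0.127 to 0.437 FPKM), with a log2 difference of 0.32 (adjusted p 0.187).

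In KO-8-hetero tumors Car12 was higher than in WT-young by 1.87 on the log2 scale (0.25 to 3.50, adjusted p 0.705), from 2.59, 34.4 and 44.3 FPKM. Without KO-8-hetero tumor 1, the one at 2.59 FPKM, the difference was 3.04 with a limma adjusted p of 0.0297. That left tumor 2, with its squamous and skeletal muscle markers, and tumor 3, of the female pattern. The WT-young tumors were all of the male pattern, and the part of these features was not tested. For this fit, too, the share of all genes called is not given, and nothing is read from the Car12 call. Car3 was higher by 2.12 (-0.03 to 4.27), which dropped to 0.11 without tumor 2 of that group. The Car4 difference was -1.52 (-3.55 to 0.52), or -3.06 without tumor 3 (adjusted p 0.334).

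In KO-8-homo against WT-young tumors the largest differences were -0.71 for Car1 (-2.48 to 1.07, adjusted p 0.836) and -0.68 for Car4 (-2.71 to 1.36), and that of Car3 was 0.00 (-2.15 to 2.15). Against KO-8-hetero, the same leading number with the other zygosity word, Car3 was -2.13 (-4.42 to 0.17), Car12 -1.38 (-3.12 to 0.36) and Car13 -0.68 (-1.45 to 0.08). The Car3 value was -0.11 without KO-8-hetero tumor 2. Without KO-8-hetero tumor 1, Car13 was -1.22 with a limma adjusted p of 0.0374. That again left tumor 2, with its squamous and skeletal muscle markers, and tumor 3, of the female pattern. The KO-8-homo tumors were all of the male pattern. Nothing is read from the Car13 call, since the share of all genes called in that fit is not given.

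Among the 7 other carbonic anhydrases, Car5a, Car6 and Car10 stayed under 1 FPKM in all libraries and were not tested. Car14, a membrane enzyme, was 2.17 to 5.74 FPKM in normal libraries and 0.998 to 2.34 in tumors, below the normal libraries of its own title group in every tumor. Car11, a second relative without enzyme activity, was 0.697 to 2.78 FPKM in normal libraries and 0.175 to 1.499 in tumors. Their log2 differences between tumor and normal tissue in KO and WT were -0.85 and -0.89 for Car14 and -0.75 and -0.89 for Car11. Car11 was the only carbonic anhydrase past the threshold in a genotype comparison, higher in KO-1-hetero (0.955, 1.499 and 0.673 FPKM) than in WT-young tumors (0.175 to 0.240 FPKM) by 0.74 (SE 0.19, limma adjusted p 0.0497). That call was lost without any 1 of the 7 libraries (adjusted p 0.0858 to 0.17).

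Gene lists around the family give its setting, each counted in the same fits. Of 17 tested genes of bicarbonate, proton and chloride transport, 9 were lower and 1 higher in tumors of each label (of all genes, 24.1% were higher and 23.2% lower in KO, and 15.5% and 14.8% in WT), with medians of -1.07 in KO and -1.20 in WT on the log2 scale, against 0.02 over all genes in both. Slc26a3 fell by 3.91 and Aqp8 by 4.18 in KO, and the anion exchanger Slc4a2 by 1.13 and the bicarbonate cotransporter Slc4a4 by 1.61 in WT. Of 14 absorptive colonocyte genes, 6 were lower and 0 higher in each label, and the others did not pass the threshold. The medians of the 14 were -1.54 in KO and -0.61 in WT. Guca2a, which encodes the hormone guanylin, was among the lower ones (-2.76 and -3.07). Aqp8 was counted both here and among the transport genes. Of 15 intestinal transcription factors and regulators, 8 were lower in each label, among them Cdx1 (-1.74 and -1.82) and Hnf4a (-0.95 and -1.15).

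Hypoxia-inducible genes, the list to which Car9 belongs by textbook, showed no common direction: 4 of 20 were higher and 6 lower in KO tumors, and 3 higher and 1 lower in WT tumors, with medians of 0.13 and 0.20. In KO these counts are near the shares over all genes given above. Slc16a3, a lactate exporter, was higher by 2.14 and 2.44 and the glycolytic regulator Pfkfb3 by 1.47 and 1.53, while Pfkfb4 was lower (-0.78 and -0.86). Of 20 Wnt target genes, 18 were higher in KO and 15 in WT tumors, and 0 lower, with medians of 1.88 and 1.78. Without WT-old tumor 1, in which most of them were at normal level, the WT count was again 15 and the median 1.99. Of all genes, 16.2% were then called higher. In the 8 genotype and zygosity comparisons these 5 lists held 1 call in all, Apcdd1, a Wnt inhibitor, lower in KO-1-hetero than in WT-young tumors (-2.49, limma adjusted p 0.0397).

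As sums, goblet cell and enteroendocrine markers were also lower in tumors by median. The lower carbonic anhydrases thus stood beside lower marker sums of these epithelial cells. Tuft cell markers were not lower as a sum of 8: 5.35 to 27.6 FPKM in normal libraries (median 18.9) and 19.4 to 58.7 in tumors (median 26.5). Their members went both ways. Avil was 0.609 to 3.89 FPKM in normal libraries and 1.39 to 47.8 in tumors, and Trpm5 0.287 to 4.22 and 0.0846 to 1.55. The summed FPKM of 8 goblet markers was 9125 to 25008 in normal libraries and 2248 to 10250 in tumors, and of 8 enteroendocrine markers 313 to 1108 and 17.5 to 212. Single goblet markers overlapped between the tissues. Muc2 was 193 to 4114 FPKM in normal libraries and 142 to 1508 in tumors, and Ang4 5.66 to 2859 and 5.27 to 2591. In KO-8-hetero, Muc2 was higher in every tumor (217, 342 and 1508 FPKM) than in both normal libraries (193 and 215 FPKM). Smooth muscle markers were 1130 to 8897 in normal libraries and 216 to 3481 in tumors, with the highest tumor value in WT-old tumor 1. Epithelial markers overlapped widely (given above). The part of tissue make-up in the tumor values of Car1, Car2 and Car4 was not tested.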

How the data were processed

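The deposited files hold 1 FPKM value per gene symbol and library, with 24346 symbols in each of 24 tables. Per the submitters' processing notes, TopHat2 2.1.1, Bowtie2 2.2.8, SAMtools 0.1.18, Cuffdiff 2.2.1 and build mm10 were used by the authors, with no roles given; the labels' protocols name miRNeasy RNA and a TruSeq Stranded mRNA kit. FPKM values are not counts, and the fragment totals are unknown, so no counting interval is given.

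Values were set to log2(FPKM + 1), which understates changes of low genes. The 13799 genes that reached 1 FPKM in 4 or more libraries were fitted with limma 3.58.1 in R 4.3.3 (eBayes with trend, two-sided, Benjamini-Hochberg over all genes, threshold 0.05). A model of label and tissue served the pooled comparisons and a model of the 10 title groups the others, all 24 libraries in each. Intervals are 95% and unadjusted. The script was tested on simulated data.

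Named genes were the 9 members, the other family symbols, up to 3 genes by p from each list, and the 3 genes most like each member over 24 libraries or 14 tumors. The likeness over 10 normal libraries, and Cdx2, Krt5, Krt14, Ckm, Acta1, Muc2 and Ang4 beside it, were added after values were seen. Members and lists were chosen with earlier results of these data known. Same-numbered libraries deviated together only in KO-8-hetero against WT-young tumors (r of 0.165 to 0.439 over 3 pairs), from the titles' numbers; the block changed no call of a member there.

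Alternatives covered the pseudocount, the filter, scaling, eBayes options, array weights, the replicate block and left-out libraries; fits on the libraries with Xist under 1 FPKM, and the gene lists without WT-old tumor 1, were added after values were seen. Promoter windows and gene positions are RefSeq's (GRCm38.p6).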

Additional observations from a re-analysis of the deposited data

Results flagged for a closer look

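Among the values of the 9 carbonic anhydrases, 7 stood far from the rest of their group by the gap to the nearest library. Each gene was checked in the pooled groups of label and tissue and in the WT-young tumors. The rule flags about 1 in 20 groups by chance where values are normally distributed, which FPKM need not be. All 7 were the highest of their group. In KO tumors these were Car1 in KO-8-hetero tumor 3 (1932 FPKM, next 770), Car3 in KO-8-hetero tumor 2 (100.5, next 3.78) and Car13 in the same library (32.4, next 20.2). That library is the one with 11627 FPKM of squamous markers, and the part of those tissues in its values was not tested.

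In WT normal tissue Car3 was 52.3 FPKM in WT-young normal 1 (next 10.04), which also had the highest adipocyte marker sum of the 4 WT normal libraries, 332. In WT tumors, and among the WT-young tumors alone, Car3 was 0.762 FPKM in WT-young tumor 4 (next 0.339). Car4 in the same library was 154 FPKM (next 37.0), and Car7 in WT-old tumor 1 was 1.44 FPKM (next 0.437).

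Car7 also differed in direction between title groups. In WT-old the tumor was above both normal libraries, with a ratio of means of 2.31, whereas all tumors were below both normal libraries in the other 4 kinds, WT-young and the 3 labelled KO. WT-old has 1 tumor, the one with 3481 FPKM of smooth muscle markers and Wnt targets mostly at normal level, and the levels are near 1 FPKM; the difference was not tested.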

How the results depend on the processing

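No genotype comparison called a member, and over the alternatives 6 of 1630 fits of a member in these comparisons did, while the sign turned in some alternative for 41 of 72 pairs of member and comparison. Array weights, which give noisy libraries less say, called 3 members in KO-1-hetero against WT-young tumors (Car2, Car7 and Car12), and 7 and 8 members between tumor and normal tissue in KO and WT. The other 3 calls came from leaving out 1 library: the count ranged from 0 to 1 for KO-8-hetero against WT-young, KO-8-homo against KO-8-hetero and KO-1-hetero against KO-8-hetero tumors. Between tumor and normal tissue, counts without 1 library were 4 to 5 in KO and 3 to 6 in WT. Shares of all genes called under array weights, without 1 library or with the replicate block are not given here. Nothing is read from these counts of members. The Car12 difference in KO ranged from -0.46 to 0.25 without 1 library and was positive without KO-8-hetero tumor 1 (0.16), KO-8-homo tumor 1 (0.10) or 3 (0.10), or KO-8-homo normal 1 (0.25) or 2 (0.25). With the replicate block the WT count was 6, with Car8 and Car9 added, and the Car11 call in KO-1-hetero was lost (adjusted p 0.099); it changed no other count by more than 1.5 times. Car7 could not be tested under the stricter filter of 10 libraries. Among the libraries with Xist under 1 FPKM, added after the data were seen, the Car12 interaction was -0.26 (1.77 with all) and none of the 3 pooled genotype comparisons called a member; the cause was not tested. Scaling moved the median of all genes by less than 0.1. Median-of-ratios scaling raised the share of higher calls in KO-1-hetero against WT-young from 56.7% to 69.7%.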
